A study of Mus musculus with 6 samples.

Results

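The 10 genes described here encode receptors for lysophosphatidic acid (LPA; Lpar1 to Lpar6) and sphingosine-1-phosphate (S1P; S1pr1, S1pr2, S1pr3 and S1pr5). They were chosen by gene symbol, matched to the deposited Ensembl identifiers, and all 10 were found among the 41388 genes listed. The data were 6 RNA sequencing libraries, each made from cells that carried EGFP, a green fluorescent protein, and were sorted out of the dorsal root ganglia (the ganglia that house the cell bodies of sensory neurons) of C57BL/6 mouse embryos at 18.5 days post coitum. All libraries carried the RetFloxedEGFP allele with Cre recombinase (Scn10a<tm2(cre)Jnw>) expressed from the Nav1.8 locus, a sodium channel locus active in nociceptors; the genotype label of male C names RetFloxedEGFP alone. The labels do not state how many copies of either altered allele the embryos carried. The 3 female libraries and male A pooled 40 ganglia from 2 embryos each, male B 60 ganglia from 3 embryos, and male C, deposited in a later batch of records, 20 ganglia from 1 embryo. Levels were described over the 6 libraries as 1 sorted population, and female (n = 3) and male (n = 3) libraries were compared. The library was the unit of every test. The p-values of the sex comparison set a difference against the spread between libraries. Permutation p-values concern differences between genes within libraries, or correlations over the libraries.

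LPA and S1P are small lipids that circulate in blood and are released by injured tissue, and both act on G protein-coupled receptors. Lpar1, Lpar2 and Lpar3 and the S1P receptors belong to the EDG receptor family, whereas Lpar4, Lpar5 and Lpar6 are related to the P2Y nucleotide receptors. In sensory ganglia LPA signalling, best known through Lpar1, has been linked to demyelination and neuropathic pain, and S1P receptors to the excitability of nociceptors, the neurons that sense noxious stimuli.

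Library totals lay between 15693013 (male C) and 24033601 reads (female B). The markers of the sort were present in every library: Scn10a, which encodes the sodium channel Nav1.8, averaged 119 ± 16.8 RPKM (reads per kilobase of gene length, scaled to library size) and Ret, the receptor for glial cell line-derived factors, 27.8 ± 3.83 RPKM (SD, n = 6). Glial transcripts were present too. The 15 satellite glia and Schwann cell markers summed to between 998 RPKM (female B) and 1192 RPKM (male B), led by Pmp22, Fabp7 and Apoe, and only Foxd3 averaged under 1 RPKM. The other marker lists were lower, with sums of 17.7 to 22.0 RPKM for 15 endothelial and mural genes (led by Rgs5, Pdgfrb and Egfl7, lowest Flt1), 7.38 to 12.9 RPKM for 13 immune genes (led by Fcer1g, Cd3e and C1qb) and 157 to 194 RPKM for 9 fibroblast genes (led by Dcn, Postn and Col1a1, lowest Twist1). The 7 blood genes, led by Hbb-bs, Hbb-bt and Hba-a1 (lowest Slc4a1), summed to 1257 RPKM in male A and 41.4 to 223 RPKM in the others, while the 16 sensory neuron genes, led by Stmn2, Tubb3 and Calca with Ret lowest, summed to between 7327 and 9915 RPKM. In such sorted bulk samples fewer cells of a type and less RNA per cell cannot be told apart.

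Lpar1 was the leading receptor gene, followed by S1pr1 and S1pr3, and S1pr5 was barely detected. Of the 10 receptor genes 7 averaged at least 1 RPKM, against 28.0% of all genes listed. Of the genes that passed the filter on low counts, which include 9 of the 10, 76.1% did so. Both shares are also the background of the counts at 1 RPKM given for other lists below. Each library by itself had 7 such receptor genes, except female A with 8, where Lpar6 stood at 1.01 RPKM. Summed per library, the 6 LPA receptor genes reached 44.2 ± 4.88 RPKM and the 4 S1P receptor genes 27.1 ± 2.89 RPKM (SD, n = 6).

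**Figure D1:**
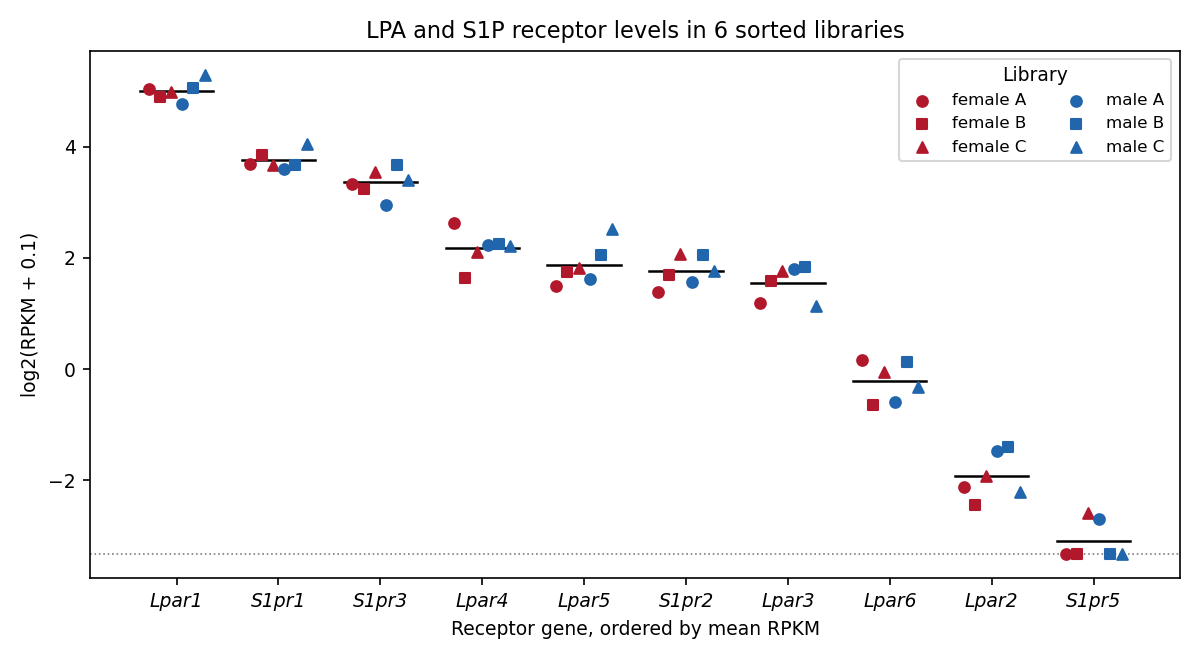
Level of each receptor gene as log2(RPKM + 0.1), with 1 point per library (females in red, males in blue) and a bar at the mean of the 6 libraries; the dotted line marks 0 reads. Lpar1 sits above all other genes in every library, Lpar4, Lpar5, S1pr2 and Lpar3 share a range, and S1pr5 lies on or just above the dotted line.

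Because these genes ran from 16992 reads in all for Lpar1 to 7 for S1pr5, 3 promoters, picked after the levels were seen, are shown: that of the leading LPA receptor gene, that of an abundant S1P receptor gene and that of the near-silent S1pr5. They come from RefSeq on GRCm38.p6. Each covers 250 bases before to 50 bases after the start site nearest to the deposited start of the gene. For S1pr3 and S1pr5 the distance between the 2 is 0 bases. For Lpar1, with 3 start sites listed, it is 407 bases, and the window lies wholly inside the deposited span of the gene. CpG dinucleotides are in capitals.
Lpar1 promoter, chr4:58553442-58553741, minus strand: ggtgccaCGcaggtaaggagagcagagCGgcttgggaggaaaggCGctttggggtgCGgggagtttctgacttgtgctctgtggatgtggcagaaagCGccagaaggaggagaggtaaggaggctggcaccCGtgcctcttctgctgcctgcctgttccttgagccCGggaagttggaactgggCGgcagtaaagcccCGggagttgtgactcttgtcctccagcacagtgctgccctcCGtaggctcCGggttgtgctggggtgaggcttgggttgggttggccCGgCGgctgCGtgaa
S1pr3 promoter, chr13:51408368-51408667, plus strand: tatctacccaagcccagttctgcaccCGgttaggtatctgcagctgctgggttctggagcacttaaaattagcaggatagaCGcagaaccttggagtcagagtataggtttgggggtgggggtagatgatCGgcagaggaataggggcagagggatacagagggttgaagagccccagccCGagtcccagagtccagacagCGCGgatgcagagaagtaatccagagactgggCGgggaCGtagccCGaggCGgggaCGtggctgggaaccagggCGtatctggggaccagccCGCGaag
S1pr5 promoter, chr9:21248394-21248693, minus strand: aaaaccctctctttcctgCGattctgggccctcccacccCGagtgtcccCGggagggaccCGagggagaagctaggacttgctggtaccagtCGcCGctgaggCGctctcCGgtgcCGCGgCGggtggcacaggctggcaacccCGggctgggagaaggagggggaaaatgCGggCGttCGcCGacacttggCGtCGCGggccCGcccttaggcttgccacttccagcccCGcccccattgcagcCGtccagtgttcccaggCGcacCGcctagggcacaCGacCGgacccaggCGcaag
The table of promoters held 9 of the 10 receptor genes. S1pr5 had the most CpG dinucleotides of the 9, 27 in 300 bases, followed by Lpar3 with 25. Lpar1 and S1pr3 had 14 each, and Lpar6 had 1. The median over 32851 promoter windows of this length was 7, and 36.3% of them held 14 or more. The GC box GGGCGG, searched on both strands, was found in 8 of the 9 (all but Lpar6) and in 35.7% of all windows. The TATA box sequence TATAAA, searched likewise, was found in Lpar4 alone of the 9 and in 13.6% of all windows. These matches describe the letters of the windows only.

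Among the EDG-type LPA receptor genes, Lpar1 was the most abundant and also one of the steadiest. Lpar1 (ENSMUSG00000038668, chromosome 4, 58435255 to 58553898, minus strand) had between 2221 and 3388 reads per library. Its level was 32.6, 29.6 and 31.6 RPKM in the females (A, B, C) and 27.2, 32.9 and 39.1 RPKM in the males, a mean of 32.2 ± 4.01 RPKM (SD, n = 6). Male C was the highest and male A the lowest, and the female libraries lay between them. Lpar1 stood above 95.5% of all genes listed and 87.7% of those that passed the filter on low counts. It made up 72.8 ± 2.13% of the summed RPKM of the 6 LPA receptor genes, between 69.8% (male A) and 75.2% (female B). Its span holds Mir3095 and Gm12577, neither of which shares exonic bases with it in the deposited tables.

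Lpar1 RNA is also known from Schwann cells, and the glial markers were abundant in these libraries. The lowest Lpar1 level exceeded the highest level of 7 of the 15 glial markers, and its mean was above that of 9. Over the 6 libraries log2(RPKM + 0.1) of Lpar1 and the log2 of the summed glial level gave a Pearson r of 0.65 (exact permutation p = 0.153, adjusted p = 0.403 over 18 relations) and a Spearman rho of 0.66 (exact permutation p = 0.175, adjusted p = 0.45). Without female B and male B, the libraries farthest from the median glial level, r was 0.73, and without male C it was 0.50. The part of glial RNA in the Lpar1 level was not tested.

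Lpar2 and Lpar3, which share the EDG family with Lpar1, were far lower. Lpar3 (ENSMUSG00000036832, chromosome 3, 146220961 to 146286214, plus strand) had a lowest level of 2.10 RPKM (male C), a median of 3.10 and a highest level of 3.46 RPKM (male B), from 78 to 207 reads. Female A and male C, the libraries with the fewest reads, had the lowest Lpar3 levels, and the other 4 libraries lay between 2.89 and 3.46 RPKM. Lpar2 (ENSMUSG00000031861, chromosome 8, 69822429 to 69831102, plus strand) had 12, 12 and 23 reads in the females (A, B, C) and 33, 39 and 10 reads in the males, a level of 0.172 ± 0.0795 RPKM (SD, n = 6). Male A and male B were the highest for Lpar2, at 0.258 and 0.279 RPKM, while male C, at 0.115 RPKM, lay within the female range of 0.0841 to 0.165 RPKM.

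The P2Y-related LPA receptor genes stood between these extremes. Lpar4 (ENSMUSG00000049929, chromosome X, 106920625 to 106933900, plus strand), known for its part in the growth of blood vessels, averaged 4.51 ± 0.986 RPKM, lowest in female B at 3.02 and highest in female A at 6.09 RPKM. The male libraries were close together, from 4.52 to 4.67 RPKM. Lpar5 (ENSMUSG00000067714, chromosome 6, 125067920 to 125082472, plus strand), linked to pain behaviour in mice, had levels of 2.70, 3.24 and 3.41 RPKM in the females (A, B, C) and 2.98, 4.05 and 5.59 RPKM in the males. Male C was the highest and the other libraries overlapped between the sexes. Lpar5 is also known from macrophages and microglia. Its lowest level was above the highest level of 12 of the 13 immune markers, all but Fcer1g. Fcer1g averaged 8.21 ± 1.67 RPKM and was the only immune marker with a mean of at least 1 RPKM. Among the others, Csf1r averaged 0.0532 ± 0.0254 RPKM and Cx3cr1 0.0548 ± 0.0396 RPKM (SD, n = 6). The part of immune cell RNA in the Lpar5 level was not tested.

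Lpar6, best known for its part in hair growth, averaged 0.779 ± 0.209 RPKM (SD, n = 6), from 0.538 RPKM in female B to 1.01 RPKM in female A. Lpar6 (ENSMUSG00000033446, chromosome 14, 73237895 to 73243294, plus strand) is a gene of 1 exon that lies wholly inside the span of Rb1, which runs on the minus strand. Exons of Rb1 cover 408 of its 5400 bases in the deposited annotation columns. No source used here gives the strand setting of the counts, so reads of Rb1 and Lpar6 in these bases cannot be told apart.

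The S1P receptor genes were led by S1pr1 and S1pr3. S1pr1 (ENSMUSG00000045092, chromosome 3, 115710433 to 115715055, minus strand), the Gi-coupled receptor known for endothelial barriers and lymphocyte traffic, stood at 12.8, 14.4 and 12.6 RPKM in the females (A, B, C) and 11.9, 12.7 and 16.5 RPKM in the males, a mean of 13.5 ± 1.67 RPKM (SD, n = 6). Male C was the highest, and the sexes overlapped. S1pr3 (ENSMUSG00000067586, chromosome 13, 51408618 to 51422797, plus strand), a receptor known from nociceptors in pain and itch, stood at 9.93, 9.36 and 11.6 RPKM in the females (A, B, C) and 7.61, 12.7 and 10.5 RPKM in the males, a mean of 10.3 ± 1.77 RPKM. Female C and male B were the highest for S1pr3 and male A the lowest. S1pr1 made up 49.9 ± 4.91% and S1pr3 37.8 ± 3.84% of the summed RPKM of the 4 S1P receptor genes (SD, n = 6). The order of these genes is one of levels per length: S1pr3, with a deposited length of 4484 against 3029 bases, had more reads over all libraries (5784 against 5043).

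S1pr1 is a classical endothelial gene, so it was set beside the vessel markers. Its mean was above that of all 15 endothelial and mural markers, and its lowest level was above the highest level of 14 of them, all but Rgs5. Of these markers 3 averaged at least 1 RPKM: Rgs5 at 9.87 ± 2.01, Pdgfrb at 4.78 ± 1.06 and Egfl7 at 1.19 ± 0.576 RPKM (SD, n = 6). Among the lower ones, Pecam1 averaged 0.399 ± 0.0713 RPKM, Cdh5 0.476 ± 0.139 RPKM and Kdr 0.167 ± 0.0790 RPKM (SD, n = 6). The lowest level of S1pr3 was likewise above the highest of 14 of the 15. Across libraries S1pr1 and the summed endothelial and mural level gave a Pearson r of 0.81 (exact permutation p = 0.0361, adjusted p = 0.325 over 18 relations) and a Spearman rho of 0.89 (exact permutation p = 0.0333, adjusted p = 0.3). Without male C and female A, the libraries farthest from the median, r was 0.96, and without male C alone it was 0.45. With the median over the markers in place of their sum, which Rgs5 and Pdgfrb lead, the direction turned (r = -0.44, exact permutation p = 0.422, adjusted p = 0.817). The part of endothelial RNA in the S1pr1 and S1pr3 levels was not tested.

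S1pr2 was lower, and S1pr5 was at the edge of detection. S1pr2 (ENSMUSG00000043895, chromosome 9, 20965952 to 20976793, minus strand), known for its part in hearing, ranged from 2.53 RPKM (female A) through a median of 3.22 to 4.10 RPKM (female C). Female C and male B, at 4.10 and 4.05 RPKM, were its highest libraries, as for S1pr3. S1pr5 (ENSMUSG00000045087, chromosome 9, 21242912 to 21248443, minus strand), known from oligodendrocytes and natural killer cells, had 4 reads in female C, 3 reads in male A and 0 reads in the other 4 libraries. A count of 0 allows a level of up to 0.0491 RPKM in female B and 0.0807 RPKM in male C (3 counts, counting error only). In female C the 4 reads gave 0.0671 RPKM.

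The order of mean levels was Lpar1, S1pr1, S1pr3, Lpar4, Lpar5, S1pr2, Lpar3, Lpar6, Lpar2 and S1pr5. Neighbours were compared within each library on the log2(RPKM + 0.1) scale, which understates differences of low genes, with a permutation test that flips signs exactly (two-sided), whose smallest p with 6 libraries is 0.03125. Of 9 neighbour pairs 5 kept their order in 6 of 6 libraries with ranges that did not overlap, but none passed 0.05 after adjustment over the 9 pairs (each of the 5 at exact permutation p = 0.03125, adjusted p = 0.0562). With 5 pairs at the smallest possible p, their adjusted p could not be lower, whatever the size of the differences. The pairs and their direction were taken from these same levels, so the test gives no independent evidence of the order. Lpar1 exceeded S1pr1 by 1.25 ± 0.12 log2 units and S1pr3 exceeded Lpar4 by 1.18 ± 0.39. Lpar3 exceeded Lpar6 by 1.77 ± 0.50, Lpar6 exceeded Lpar2 by 1.71 ± 0.47, and Lpar2 exceeded S1pr5 by 1.16 ± 0.43 log2 units (SD, n = 6). With a pseudocount of 1 these last 3 differences were 1.12, 0.60 and 0.20 log2 units. The ranges of the other 4 pairs overlapped. S1pr1 exceeded S1pr3 by 0.40 ± 0.28 log2 units, with 5 of 6 libraries in this order (p = 0.0625 by the exact test, 0.0938 after adjustment). Lpar4 exceeded Lpar5 by 0.31 ± 0.52, Lpar5 exceeded S1pr2 by 0.11 ± 0.33 and S1pr2 exceeded Lpar3 by 0.20 ± 0.28 log2 units (exact permutation p from 0.156 to 0.53125). None of these 3 neighbour differences exceeded its spread between libraries by this test. Lpar4 and Lpar3, which are not neighbours in the order, were not tested against each other, and Lpar4 was the higher in 6 of 6 libraries. Without male C the order of Lpar5 and S1pr2 turned, to -0.012 log2 units.

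The spread between libraries was smallest for the most abundant receptor genes. The coefficient of variation of the RPKM values was 12.4% for S1pr1, 12.5% for Lpar1 and 17.2% for S1pr3, between 19.1% and 28.7% for S1pr2, Lpar3, Lpar4, Lpar6 and Lpar5, and 46.3% for Lpar2. edgeR's biological coefficient of variation, which sets aside counting error and sex, was 0.172 for Lpar1 (percentile 9.5 among tested genes) and 0.184 for S1pr1 (percentile 18.3). It was 0.356 for Lpar2 (percentile 85.1), against a median of 0.238 over all tested genes.

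**Figure D2:**
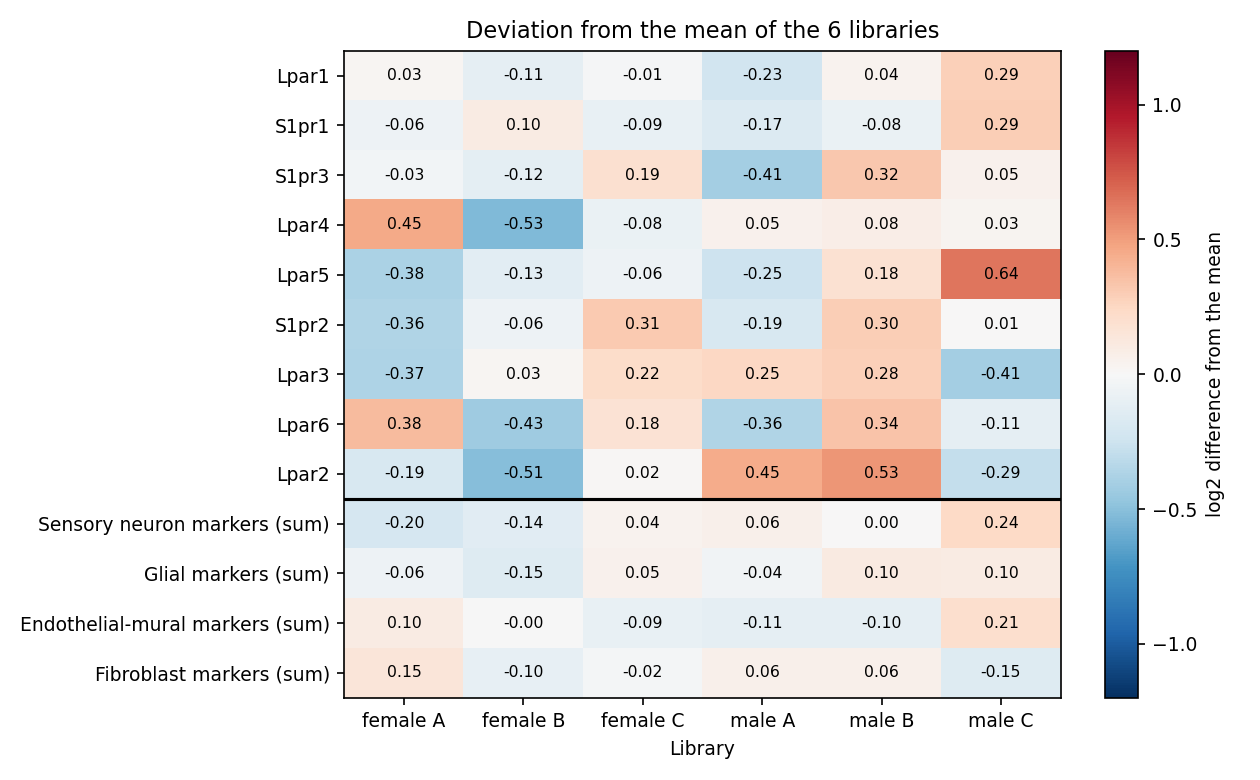
Deviation of each tested receptor gene and of 4 summed marker lists from its mean over the 6 libraries, in log2 units (rows are genes or lists, columns libraries; red is above and blue below the mean). Lpar1, S1pr1 and Lpar5 are highest in male C, S1pr2 and S1pr3 in female C and male B, and the marker sums stay within 0.235 log2 units of their means.

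The receptor genes did not share 1 pattern across libraries. Male C was the highest library for Lpar1 (0.29 log2 units above its mean), S1pr1 (0.29) and Lpar5 (0.64), and the lowest for Lpar3 (-0.41). Female C and male B were the 2 highest libraries for S1pr2 and S1pr3. Over all tested genes these 2 libraries were also the most alike of any female and male pair. Their deviations from the means of their sex correlated at 0.619, so the shared pattern is not particular to these receptor genes. Female B was the lowest for Lpar2, Lpar4 and Lpar6, at -0.51, -0.53 and -0.43 log2 units. In male C, the library of 1 embryo, the summed sensory neuron markers lay at 0.24, the glial at 0.10, the endothelial and mural at 0.21 and the fibroblast markers at -0.15 log2 units from their means, and their part in the receptor values was not tested. For the 3 leading receptor genes, the genes of most similar pattern were sought by Pearson r of log2(RPKM + 0.1) among 11433 others with at least 1 RPKM. These were Tmem204, Psph and Wdr24 for Lpar1 (r of 0.998, 0.997 and 0.987), Stk11ip, Actr2 and Gtpbp2 for S1pr1 (0.993, 0.987 and 0.987) and Tulp3, Rps29 and Hmbox1 for S1pr3 (0.991, 0.987 and 0.987). These values describe 6 libraries that share their processing, and 164, 125 and 198 genes reached an r of 0.9 with Lpar1, S1pr1 and S1pr3.

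Of the 9 tested receptor genes and 2 marker lists, 18 relations were computed and 1 reached an adjusted p of 0.05. Lpar3 was lower where the summed endothelial and mural level was higher (Pearson r = -0.98, exact permutation p = 0.00278, adjusted p = 0.05; Spearman rho = -0.94, exact permutation p = 0.0167, adjusted p = 0.3). Without male C and female A r was -0.99, and without male C alone it was -0.99. The relation did not hold with the median over the markers (r = -0.0064, exact permutation p = 0.992, adjusted p = 0.992). With library totals in place of normalised library sizes the relation kept its direction but missed an adjusted p of 0.05 (r = -0.91, exact permutation p = 0.0139, adjusted p = 0.25). With the glial sum the largest r was that of Lpar5, 0.72 (exact permutation p = 0.0972, adjusted p = 0.403). S1pr3 gave 0.65 with that sum (exact permutation p = 0.164, adjusted p = 0.403). With the median over the glial markers S1pr3 had the largest r, 0.91 (exact permutation p = 0.00556, adjusted p = 0.1). By that median S1pr2 gave 0.86 (exact permutation p = 0.0375, adjusted p = 0.325) and Lpar1 0.35. The part of glial RNA in the S1pr3 and S1pr2 levels was not tested.

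No receptor gene was called different between female and male libraries. The comparison asked which transcripts differ by sex in these cells before birth. Of 15026 genes tested 5 (0.0333%) were called by edgeR's quasi-likelihood test at an adjusted p of 0.05, 1 with females higher (0.00666%) and 4 with males higher (0.0266%), and 0 of the 9 receptor genes were among them; S1pr5 did not pass the filter on low counts. None of the 9 had an unadjusted p below 0.05, against 1.1% of all tested genes, and 0 were called by DESeq2 or limma-voom. In 0 of the 9 did the 3 female and 3 male values fail to overlap, against 5.7% of tested genes (3.17% with females higher and 2.53% with males higher). The median log2 fold change of the 9, female minus male, was -0.061, beside -0.005 over all tested genes, with 2 positive and 7 negative.

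**Figure D3:**
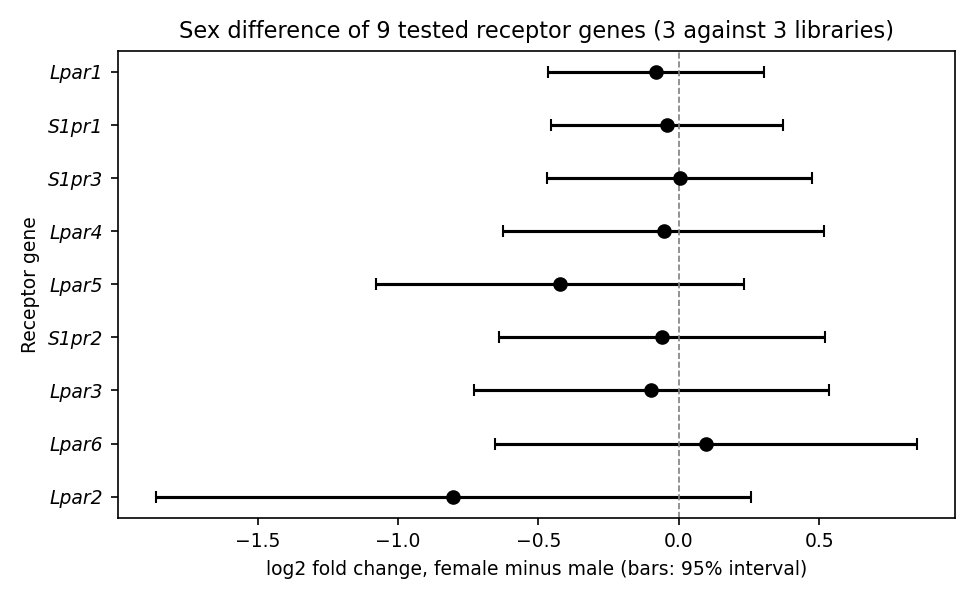
Log2 fold change, female minus male, of the 9 tested receptor genes (points) with 95% intervals from edgeR's quasi-likelihood fit (bars), 3 female against 3 male libraries. Every interval crosses 0, and that of Lpar2 is the widest.

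The intervals limit how large a sex difference could have been. For Lpar1 the log2 fold change was -0.080 with a 95% interval of -0.46 to 0.30 (females 134 ± 6.65 and males 142 ± 25.5 normalised counts per 1e+06 reads, CPM, SD, n = 3, edgeR adjusted p = 0.9997). For S1pr1 it was -0.043 (-0.46 to 0.37) and for S1pr3 0.0023 (-0.47 to 0.48). Lpar2 had the lowest value, -0.80 (-1.86 to 0.26), with females at 0.737 ± 0.238 CPM and males at 1.27 ± 0.520 CPM (SD, n = 3, edgeR adjusted p = 0.9997). Without male C the Lpar2 value was -1.09 with an unadjusted p of 0.0383 in edgeR's test and an adjusted p of 0.99998, within a range over all alternatives of 0.782 to 1 for the adjusted p. Lpar5 stood at -0.42 (-1.08 to 0.23), and without male C at -0.17. In counts simulated for this comparison (14758 genes tested) the test recovered 46 of 100 genes with a 2-fold change and 98 of 100 with a 4-fold change. It also called 9 unchanged genes. The changed genes were drawn among those averaging at least 1 CPM, with spread from edgeR's trend over level, not from each gene's own. The recovery therefore need not hold for a low gene of large spread such as Lpar2.

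Among genes that supply or remove LPA, that of the enzyme that makes it outside cells was low. Of the 10 genes of this list 7 averaged at least 1 RPKM. Of the genes that passed the filter on low counts 76.1% did so, and of all genes listed 28.0%. The highest were Gpat4, an acyltransferase that makes LPA inside cells, at 51.0 ± 5.51 RPKM, Plpp1, a phosphatase that breaks LPA down at the cell surface, at 22.0 ± 4.77 RPKM, and the acylglycerol kinase gene Agk at 21.5 ± 4.36 RPKM (SD, n = 6). Enpp2, which encodes autotaxin, the secreted enzyme that forms LPA from lysophosphatidylcholine, averaged 1.81 ± 0.702 RPKM, from 0.736 RPKM in male C to 2.83 RPKM in female A. Lipi was the lowest, with 2 reads in all. Of the 8 that were tested 0 were called between sexes, with 3 positive and 5 negative fold changes and a median of -0.028.

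The plasticity-related genes encode membrane proteins of growing axons that resemble the LPA phosphatases. All 5 averaged at least 1 RPKM, led by Plppr3 at 12.3 ± 6.94, Plppr2 at 10.5 ± 5.23 and Plppr1 at 5.27 ± 0.114 RPKM, with Plppr5 the lowest at 1.00 ± 0.313 RPKM (SD, n = 6). Plppr3 stood at 22.5 RPKM in female C and 19.7 RPKM in male B and between 6.74 and 9.73 RPKM in the other 4 libraries. Female C and male B were also the libraries in which S1pr2 and S1pr3 were highest, and they were alike over all tested genes (r = 0.619). Plppr1, in contrast, ranged only from 5.09 to 5.43 RPKM. None of the 5 was called between sexes, with 3 positive and 2 negative fold changes and a median of 0.037.

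**Figure D4:**
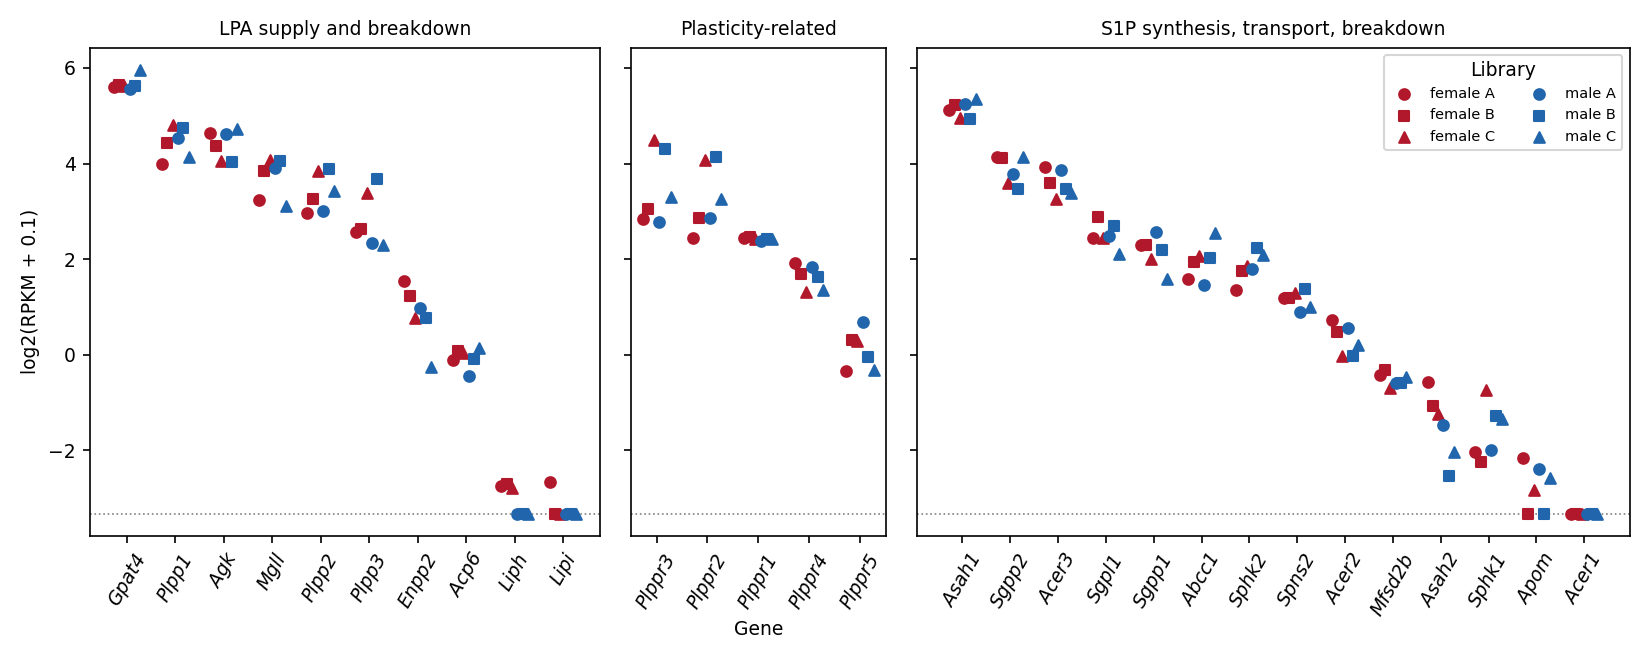
Levels as log2(RPKM + 0.1) of genes that supply or remove LPA (left), plasticity-related genes (middle) and genes that make, move or remove S1P (right), with 1 point per library (females in red, males in blue) and a dotted line at 0 reads. Gpat4 and Asah1 lead their lists, Plppr3 and Plppr2 are highest in female C and male B, and Acer1 lies at 0 reads.

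Genes of S1P metabolism were led by 2 ceramidase genes, whose enzymes release sphingosine, and by an S1P phosphatase gene. Of 14 genes 9 averaged at least 1 RPKM, led by the acid ceramidase gene Asah1 at 35.3 ± 4.18, the S1P phosphatase gene Sgpp2 at 14.8 ± 2.96 and the alkaline ceramidase gene Acer3 at 12.1 ± 2.32 RPKM (SD, n = 6), and Acer1 had 0 reads in every library. Of the kinases that make S1P, Sphk2 averaged 3.55 ± 0.734 RPKM and Sphk1 0.253 ± 0.147 RPKM. The transporter gene Spns2, whose protein exports S1P, averaged 2.14 ± 0.272 RPKM, and Sgpl1, whose enzyme degrades it, 5.66 ± 1.05 RPKM. Of 12 tested 0 were called between sexes, with 9 positive and 3 negative fold changes and a median of 0.061. Asah2, a neutral ceramidase gene named after its values were seen, was the only gene of this list whose unadjusted p lay below 0.05, higher in females, with an adjusted p of 0.9997 in edgeR's quasi-likelihood test. It stood at 0.323 to 0.578 RPKM in the 3 female libraries and 0.0713 to 0.263 RPKM in the 3 male libraries.

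Other lysophospholipid receptor genes were near the limit of detection, and genes of the signalling machinery were abundant. None of the 8 other receptor genes averaged 1 RPKM, with Gpr119, Gpr34 and Gpr174 the highest at 0.236, 0.180 and 0.103 RPKM, S1pr4 at 6 reads in all and Gpr132 at 0 reads. Only Gpr119 was tested, and it was not called (log2 fold change -0.58, edgeR adjusted p = 0.9997). Of 20 genes for G proteins and effectors 18 averaged at least 1 RPKM, led by Gnaq at 188 ± 14.1, Gna14 at 142 ± 23.4 and the GTPase gene Rhoa at 106 ± 13.9 RPKM, with Plcb2 the lowest at 0.0102 RPKM. The Gi family gene Gnai3 averaged 69.8 ± 8.68 RPKM, and Gna12 and Gna13, which encode G proteins that LPA and S1P receptors can activate, 9.54 and 8.71 RPKM. Of 19 tested 0 were called between sexes, with 9 positive and 10 negative fold changes and a median of -0.002.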

How the data were processed

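The submitters' processing notes name featureCounts 1.4.5, Subread and GRCm38.p2. No source used here gives the annotation release or the strand and multi-mapping settings. The authors deposited whole-number read counts, CPM and RPKM for 41388 genes per library. The deposited CPM equal the counts per 1e+06 reads of the library total, and the deposited RPKM equal CPM per kilobase of gene length; levels were recomputed from the counts with TMM-scaled library sizes. Per the labels' protocols, 10 ng of RNA was amplified with a SMARTer kit and 12 PCR cycles. Symbols came from GENCODE M21 by identifier (40254 matched).

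Female and male libraries were compared with edgeR 4.0.16 in R 4.3.3 (filterByExpr, quasi-likelihood test, Benjamini-Hochberg at 0.05); standard errors and intervals were derived from its F statistic. Alternatives were upper-quartile or RLE factors, no filter, 1 CPM in 3 libraries, DESeq2 1.42.0, limma-voom (limma 3.58.1), the letter as a block, embryo number as a covariate and each library left out. The fit was tested on simulated data with 200 changed genes. No 2 libraries of the same sex agreed within sampling noise. Named were all receptor genes, and of each list the 3 highest, the lowest and any called gene; others were named after their values were seen, and 1 lowest gene is not reported here. The genes and lists were chosen with earlier results of these data known. Protein sequences were not used here.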

Additional observations from a re-analysis of the deposited data

How the results depend on the processing

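No receptor gene was called between sexes under any alternative run. Without a filter on low counts 12 genes were called over the whole table, 3 with females higher and 9 with males higher, and DESeq2 called 2 genes higher in female libraries, against 5, 1 and 4. With each library left out 5 genes were called. Fold changes near 0 changed sign: that of S1pr3 was -0.0062 with RLE factors, -0.0112 without a filter and -0.0062 with DESeq2. With each library left out the log2 fold changes ran from -0.20 to 0.056 for Lpar1, -0.29 to 0.049 for Lpar3, -0.35 to 0.16 for Lpar4, -0.097 to 0.35 for Lpar6, -0.13 to 0.11 for S1pr1, -0.26 to 0.088 for S1pr2 and -0.17 to 0.19 for S1pr3. With each library left out Lpar5 exceeded S1pr2 by between -0.012 and 0.19 log2 units. The count of 1 relation with marker levels became 0 with library totals and with the median over markers. With library totals r of S1pr1 with the glial markers was -0.059. With the median over markers r was -0.17 for S1pr1 with glial markers, and 0.50 for Lpar2, -0.21 for Lpar5 and -0.44 for S1pr1 with endothelial and mural markers. The cause was not tested. The letters did not pair the libraries: same-letter deviations correlated at 0.346, -0.347 and -0.101, and with the replicate block 5 genes and 0 receptor genes were called. The largest correlation of any female and male pair was 0.619, for female C with male B. Mean levels moved by less than 1 SD under the alternatives run. Leaving out 1 library cannot move a mean by as much as 1 SD, whatever the values. Library totals differ from the normalised library sizes only by factors of 0.947 (male C) to 1.04 (female C). This measure therefore gives no evidence that the levels are steady. Low counts limit Lpar2 and S1pr5 most.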
